A study of Mus musculus with 6 samples.

Results

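The genes described here make up the digestive machinery of the lysosome and the family of transcription factors that acts on it. A list of 36 named genes was taken, together with each gene whose symbol starts with Atp6v or Atp6ap except Atp6v0d2, which gave 61 of the 24411 genes in the tables. They fall into 4 Mitf/Tfe factors, 9 cathepsins, 16 other hydrolases, 7 membrane and helper proteins and 25 genes of the proton pump. The rule itself uses no measured value, but the list was chosen with earlier results of these data known. RNA was sequenced from cultured macrophages of the inbred mouse strain C57BL/6. Their precursors, monocytes, were sorted from bone marrow by flow cytometry as LFA1-lo Itgam-lo or LFA1-hi Itgam-hi cells. LFA1 is a leukocyte integrin, and Itgam is the integrin chain also called CD11b. Both subsets were then cultured alike for 7 days with 20 ng/ml M-CSF, the growth factor of macrophages, and 10% serum, with fresh medium on day 4. Each subset gave 3 libraries, and the macrophages are named LFA1-lo or LFA1-hi by the sort of their monocytes. The comparison asks how the macrophages of both origins differ. Since the labels name no animal or culture for any library, a p-value covers the spread among these libraries alone, and that spread may be technical.

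Lysosomes break down proteins, lipids and sugar chains that macrophages take up or recycle. The vacuolar proton pump acidifies them by coupling ATP hydrolysis in its cytosolic V1 part to proton flow through its V0 part in the membrane. Mitf, Tfeb, Tfe3 and Tfec are helix-loop-helix factors that bind E-box sequences near lysosomal genes, and the kinase complex mTORC1 holds Tfeb and Tfe3 in the cytoplasm when nutrients are plentiful.

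Summed counts per library ran from 15191262 to 17614509, and 3 counts corresponded to 0.168 to 0.191 CPM, counts per 1000000 after scaling by trimmed mean of M-values (TMM). All 8 macrophage markers were detected, at a summed 16598 to 21793 CPM in LFA1-lo and 12772 to 15030.2 CPM in LFA1-hi, and 5 of them were lower and 1 higher. Apart from those of osteoclasts, markers of other cells were low but not equal between the groups. The 8 neutrophil markers summed to 11.9 to 41.8 against 3.69 to 5.65 CPM, and the 7 dendritic cell markers to 8.30 to 16.6 against 7.17 to 8.72 CPM, with Flt3 and Ccr7 at 0. The 8 mast cell and basophil markers summed to 0.895 to 1.34 against 0 to 0.335 CPM with 6 of them at 0, and the 7 lymphocyte markers to at most 0.418 CPM with 4 at 0. Of 7 osteoclast markers, which summed to 56.6 to 338 against 29.0 to 40.6 CPM, Calcr was at 0, and 5 were tested. Dcstamp (log2 fold change −4.63, edgeR adjusted p = 0.00803) and Mmp9 (−6.04, edgeR adjusted p = 0.0384) were lower in LFA1-hi, whereas Acp5 was higher (5.45 ± 1.42 against 19.2 ± 3.91 CPM, 1.82, edgeR adjusted p = 0.000459). LFA1-lo replicate 2 stood apart, with the highest osteoclast sum, so counts that move without it are given below. Whether these other cells had a part in the results was not tested, and fewer cells of a type and less RNA per cell cannot be told apart in bulk RNA.

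Of the 61 genes 54 passed the filter on low counts and were tested. In edgeR's quasi-likelihood test at an adjusted p of 0.05, 21 were lower and 3 higher in LFA1-hi macrophages, and 30 were not called. Among all 11692 tested genes 31.7% were called, 15.6% lower and 16.1% higher. The 54 genes had a median log2 fold change (LFA1-hi minus LFA1-lo) of −0.23, against 0 over all tested genes. A negative value was seen in 45 of them, or 83.3%, against 50.4% of all tested genes. CPM of the groups did not overlap for 27 lower and 5 higher genes, where 22.9% and 24.8% of all tested genes had no overlap. For 34 of the 54 the 95% interval lay within 1.5-fold in either direction. Read together in TPM, the share of transcripts per 1000000 after division by length, all members made up 5.42% of the transcripts in LFA1-lo and 4.49% in LFA1-hi. Their sum was 54315, 54957 and 53328 TPM in LFA1-lo replicates 1, 2 and 3 and 42949, 44681 and 46993 TPM in LFA1-hi, so each LFA1-lo library lay above each LFA1-hi library. A good part of the fall in this sum came from Psap and Gpnmb, described below.

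**Figure D1:**
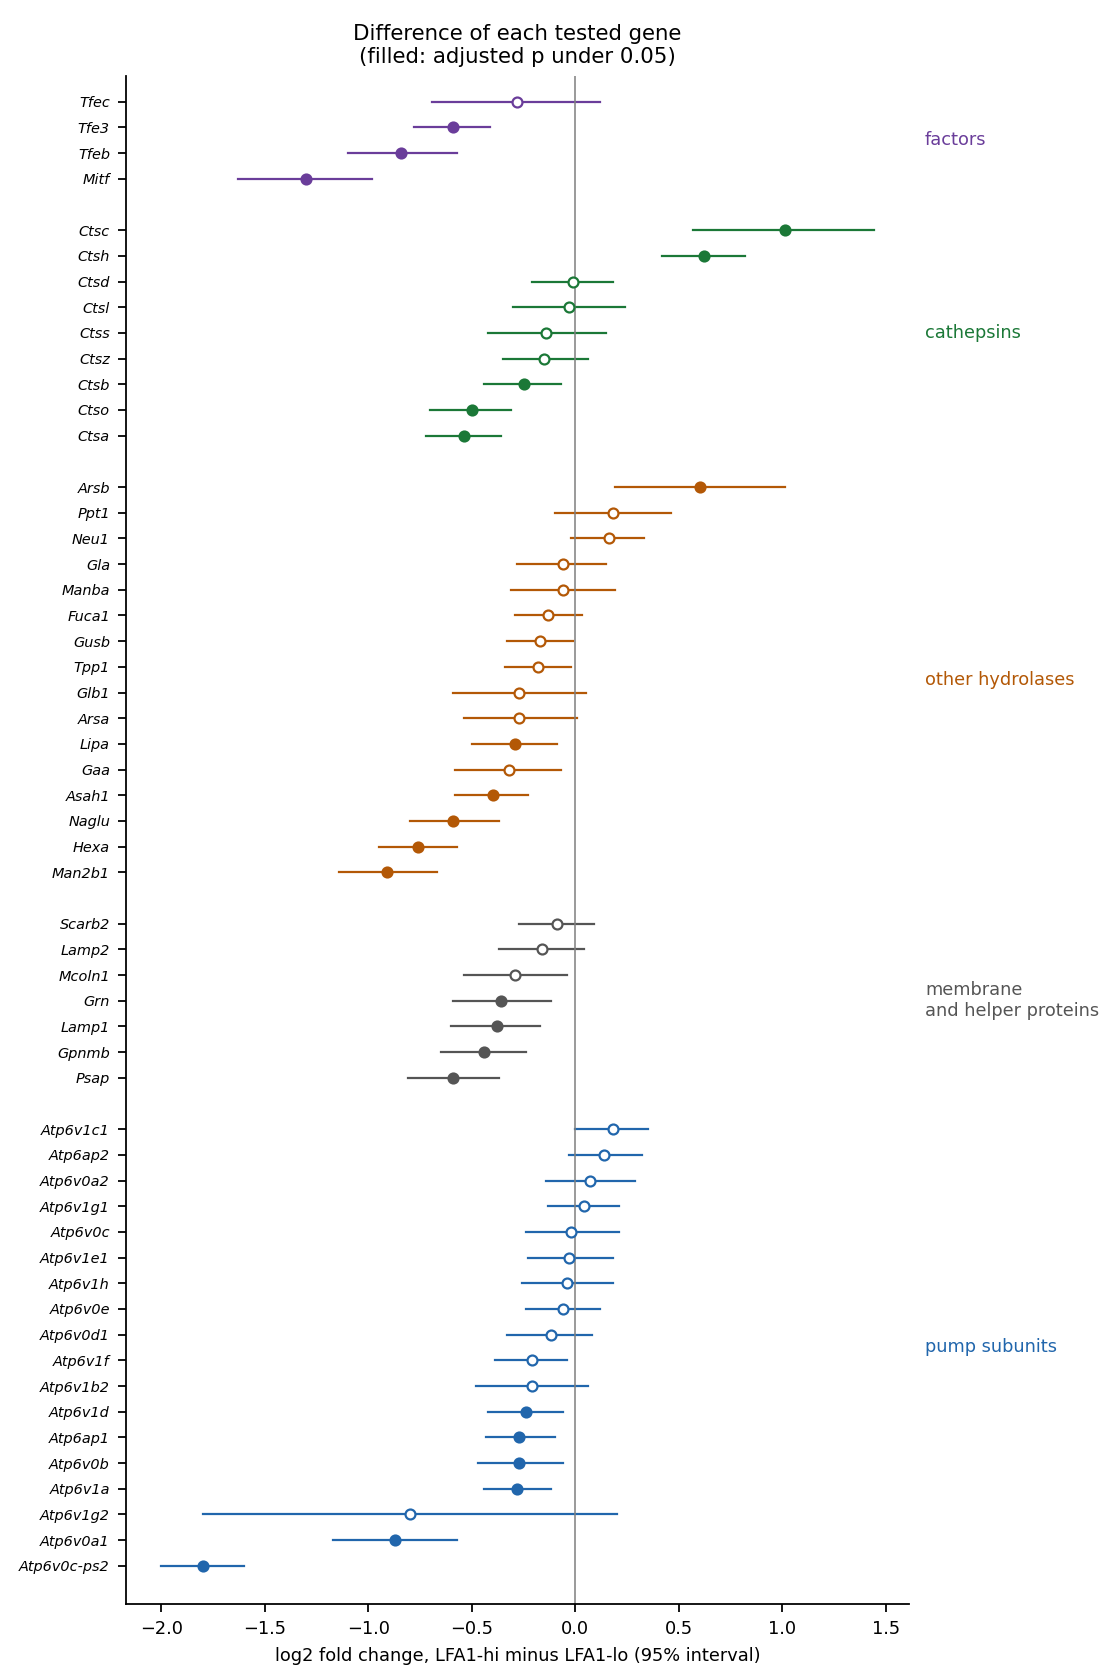
Log2 fold change, LFA1-hi minus LFA1-lo, of each of the 54 tested genes by class on the horizontal axis, with its 95% interval as a line and filled points for an adjusted p under 0.05. Points lie left of 0 for 45 genes, and Atp6v0c-ps2 and Mitf lie farthest to the left while Ctsc, Ctsh and Arsb are filled on the right.

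The number of calls moved with the libraries used. Without LFA1-hi replicate 1, 2 or 3 the lower members numbered 13 each time, where 9.84%, 9.21% and 10.0% of all tested genes were lower. They were 15 without LFA1-lo replicate 1 (11.5% of all genes) and 18 without replicate 3 (14.6%). Without LFA1-lo replicate 2 they were 29, with 5 higher, where 20.5% and 21.8% of all genes were lower and higher. The genes gained there were Tfec, Gaa, Glb1, Gusb, Tpp1, Arsa, Lamp2 and Atp6v1f among the lower and Atp6ap2 and Atp6v1c1 among the higher. All 24 genes called with 6 libraries were called without it too. Scaled by library totals alone, 16 members were lower and 4 higher, where 12.6% and 19.6% of all genes were, and with DESeq2 23 were lower (17.4% of all genes).

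The promoters of these genes are shown because the Mitf/Tfe factors bind the E-box CACGTG and its longer form TCACGTGA. In RefSeq sequence of build GRCm38.p6, from 250 bases before to 50 after the start of transcription, a promoter was at hand for 51 of the 61 members. The stretches below lie upstream of the start set for each promoter, read 5′ to 3′ on the strand of the gene. CACGTG, or TCACGTGA in the Atp6v1a stretch, is in capitals, and other forms of E-box are not marked. The start set for Atp6v1a lies within the span of its gene (44085402 to 44139702), so its stretch lies inside that span. The first 3 stretches belong to genes that were lower in LFA1-hi macrophages and the others to genes that were not called.
Lamp1, chr8:13159091-13159160, plus strand: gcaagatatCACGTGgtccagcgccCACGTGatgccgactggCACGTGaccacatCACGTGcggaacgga
Atp6v0b, chr4:117887334-117887379, minus strand: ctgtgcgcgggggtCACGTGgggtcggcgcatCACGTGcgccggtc
Atp6v1a, chr16:44139370-44139409, minus strand: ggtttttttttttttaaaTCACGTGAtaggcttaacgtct
Mcoln1, chr8:3500416-3500456, plus strand: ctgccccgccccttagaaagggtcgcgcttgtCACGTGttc
Glb1, chr9:114401008-114401047, plus strand: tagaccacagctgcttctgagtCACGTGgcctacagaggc
Ctsd, chr7:142388039-142388077, minus strand: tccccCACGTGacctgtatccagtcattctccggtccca
The Lamp1 stretch holds CACGTG 4 times in its 70 bases and the Atp6v0b stretch 2 times in 46, while the Atp6v1a stretch holds the longer TCACGTGA. The promoters of Mcoln1 and Ctsd hold TCACGTGA as well, nearer the start than the stretches printed.

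Searched on both strands, CACGTG stood in 14 of the 51 promoters (27.5%), against 12.0% of the 8907 tested genes with a promoter and 7.15% of all 32851 promoters. TCACGTGA, which contains CACGTG, stood in 7 (13.7%, against 2.28% and 0.974%). The related letters TCATGTGA stood in 6 (11.8%, against 0.954% and 0.986%). The 10-base palindrome that adds a G before and a C after TCACGTGA stood in 0 of 51, against 0.864% and 0.326%. Promoters of the 4 factors themselves held none of these letters. Among members with a promoter CACGTG was found for 5 of 18 lower genes and for 9 of 25 genes that were not called, and TCACGTGA for 2 of 18 and 5 of 25. The median log2 fold change was −0.27 for the 14 tested members with CACGTG and −0.21 for the 31 without it. A match is a run of letters and not a binding site, and no binding was measured.

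Of the 4 factors Mitf, Tfeb and Tfe3 were lower in LFA1-hi macrophages, where 15.6% of all tested genes were lower. The median log2 fold change over the 4 was −0.72. Mitf (GRCm38 chromosome 6, 97807002 to 98021360), named for its role in pigment cells and also a factor of macrophages and osteoclasts, had 232, 272 and 175 CPM in LFA1-lo replicates 1, 2 and 3. In LFA1-hi it had 90.2, 91.1 and 94.0 CPM. Each LFA1-lo library was thus well above the LFA1-hi libraries, which lay close together (226 ± 48.5 against 91.7 ± 2.01 CPM, mean ± SD, n = 3 each). The log2 fold change was −1.30 (SE 0.14, edgeR adjusted p = 0.000299), the largest fall among the members after that of a pseudogene described below.

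Tfeb (chromosome 17, 47737037 to 47792416), the factor best known for switching on lysosomal genes in starved cells, had 45.4, 47.8 and 42.2 CPM in LFA1-lo and 29.0, 22.8 and 23.9 CPM in LFA1-hi. The groups did not overlap, and the log2 fold change was −0.84 (SE 0.12, edgeR adjusted p = 0.000877). Tfe3 (chromosome X, 7762530 to 7775202), its close relative, had 185, 172 and 159.5 CPM in LFA1-lo and 112, 113 and 117 CPM in LFA1-hi, again with no overlap. Its log2 fold change was −0.59 (SE 0.08, edgeR adjusted p = 0.000729). Mitf, Tfeb and Tfe3 were called under each of the 15 alternative settings tried.

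Tfec (chromosome 6, 16830927 to 16898464), a member of the family found mainly in macrophages, overlapped between the groups. It had 21.3, 15.6 and 24.5 CPM in LFA1-lo and 19.2, 15.5 and 15.7 CPM in LFA1-hi. Its log2 fold change was −0.28 (95% interval −0.69 to 0.12, edgeR adjusted p = 0.263). LFA1-lo replicate 2 had the lowest of the LFA1-lo values, and without it the value was −0.45 (edgeR adjusted p = 0.0203).

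**Figure D2:**
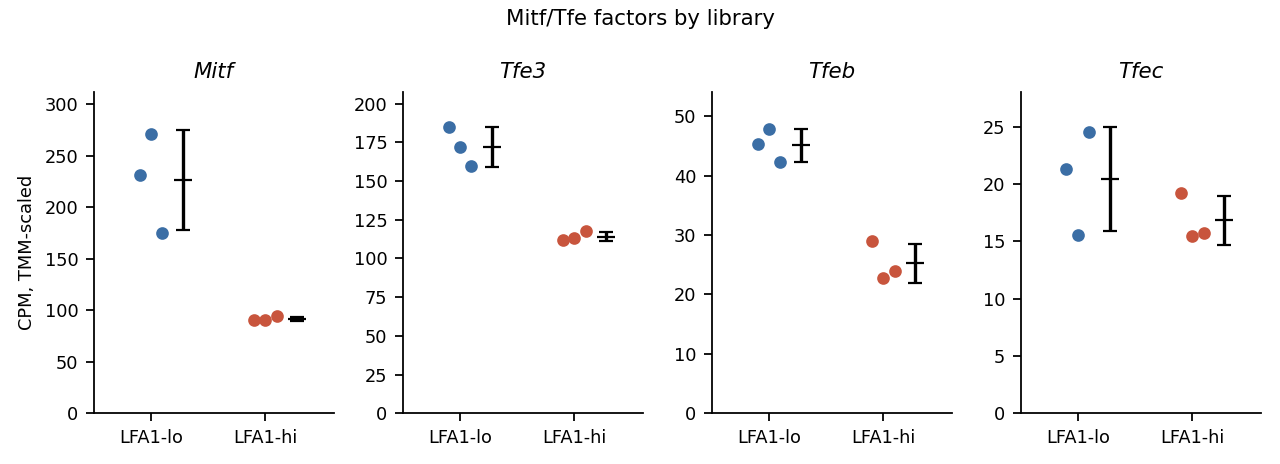
CPM of the 4 Mitf/Tfe factors in each library on linear axes from 0, with points for libraries and bars for mean ± SD (n = 3 per group). Mitf, Tfe3 and Tfeb have no LFA1-hi point as high as the lowest LFA1-lo point, whereas the Tfec points overlap.

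Per length, Tfe3 and Mitf were the main transcripts of the family in LFA1-lo macrophages, at 109 ± 10.2 and 87.1 ± 17.3 TPM, and these spreads touch. Tfeb followed at 38.5 ± 1.83 TPM and Tfec at 23.7 ± 5.66 TPM. In LFA1-hi macrophages the order was Tfe3 at 71.2 ± 2.15 TPM, Mitf at 34.9 ± 1.00 TPM, Tfeb at 21.2 ± 2.38 TPM and Tfec at 19.1 ± 2.10 TPM, where Tfeb and Tfec did not differ beyond their spread. The level of the 4 together was 276, 265 and 235 TPM in LFA1-lo and 148, 146 and 145 TPM in LFA1-hi. Mitf made up 33.5% ± 4.77 of this sum in LFA1-lo and 23.8% ± 0.885 in LFA1-hi, and Tfe3 42.3% ± 2.10 and 48.7% ± 1.91. The share of Tfeb was 14.9% ± 0.627 and 14.5% ± 1.49, and that of Tfec 9.27% ± 2.79 and 13.0% ± 1.31.

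The cathepsins, proteases of the lysosome, did not move one way. Ctsc and Ctsh were higher, Ctsa, Ctso and Ctsb were lower, and Ctsd, Ctsl, Ctss and Ctsz were not called. Among all tested genes 16.1% were higher and 15.6% lower. The median log2 fold change of the 9 cathepsins was −0.14. Their summed level was 24680.0, 25841 and 24206 TPM in LFA1-lo and 22035 to 24485 TPM in LFA1-hi, so the groups overlapped.

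Ctsc (chromosome 7, 88278024 to 88315861) encodes cathepsin C, an aminopeptidase that activates serine proteases of immune granules. It had 228, 162 and 286 CPM in LFA1-lo and 492, 455 and 412 CPM in LFA1-hi. Every LFA1-hi library was above every LFA1-lo library, and the log2 fold change was 1.01 (SE 0.19, edgeR adjusted p = 0.0053). Ctsh (chromosome 9, 90054267 to 90076095) encodes cathepsin H, an aminopeptidase and weak endopeptidase. It had 93.3, 90.8 and 109 CPM in LFA1-lo and 152, 149 and 150.0 CPM in LFA1-hi, with no overlap (a log2 fold change of 0.62, SE 0.09, edgeR adjusted p = 0.000921). Both calls held under the 15 alternatives.

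Ctsa (chromosome 2, 164832872 to 164841032) encodes cathepsin A, a carboxypeptidase that also protects β-galactosidase and the sialidase Neu1 in a complex. It had 1102, 1122 and 1023 CPM in LFA1-lo and 779.6, 692 and 757 CPM in LFA1-hi (a log2 fold change of −0.54, SE 0.08, edgeR adjusted p = 0.00103). Its span shares 1515 bases with that of Pltp, a phospholipid transfer protein gene that fell from 373 ± 146 to 24.1 ± 6.21 CPM (log2 fold change −3.95, edgeR adjusted p = 0.000243). The span also shares 725 bases with Neurl2, which was lower too (11.5 ± 1.34 against 6.31 ± 1.30 CPM, −0.86, edgeR adjusted p = 0.0105). The sources used here do not say whether reads were assigned by strand, so reads of the shared bases cannot be told apart. Ctso (chromosome 3, 81932601 to 81956725), a little studied cysteine protease, had 55.3, 51.6 and 55.4 CPM in LFA1-lo and 36.7, 38.3 and 39.5 CPM in LFA1-hi. The groups were apart, with a log2 fold change of −0.50 (SE 0.09, edgeR adjusted p = 0.00239).

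Ctsb (chromosome 14, 63122462 to 63145923) encodes cathepsin B, an abundant cysteine protease. It had 12983, 13015 and 13497 CPM in LFA1-lo and 10646, 10936 and 11519 CPM in LFA1-hi. The groups did not overlap, but the fall was small (log2 fold change −0.25, SE 0.08, edgeR adjusted p = 0.0383). The call was lost with library totals alone (−0.19) and without LFA1-lo replicate 1 (−0.26) or 3 (−0.23) or LFA1-hi replicate 1 (−0.23), 2 (−0.24) or 3 (−0.28), with edgeR adjusted p up to 0.152. Its span also shares 774 bases with Fdft1, which was not called (−0.10, edgeR adjusted p = 0.651).

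Ctsd (chromosome 7, 142375910 to 142387827), encoding the aspartic protease cathepsin D, had the most transcripts of all members per length, at 10891 ± 216 TPM in LFA1-lo and 10622 ± 695 TPM in LFA1-hi. Its counts were 10526, 10747 and 10230.2 against 10046, 9828 and 11304 CPM, so the groups overlapped. The log2 fold change was −0.01 (95% interval −0.21 to 0.18, edgeR adjusted p = 0.915). Ctsl, encoding cathepsin L, had 2870.3, 3726 and 2702 against 2929, 3016 and 3186 CPM (−0.03, 95% interval −0.30 to 0.24, edgeR adjusted p = 0.89). Ctss, encoding cathepsin S, which trims the invariant chain of class II molecules, had 1982, 2669 and 2001 against 1864, 1963 and 2224 CPM (−0.14, 95% interval −0.42 to 0.15, edgeR adjusted p = 0.448). LFA1-lo replicate 2 was the highest library for both of these proteases. Ctsz, encoding the carboxypeptidase cathepsin Z, had 699, 836 and 699 against 679, 637 and 702 CPM (−0.15, 95% interval −0.35 to 0.06, edgeR adjusted p = 0.254). The signs of Ctsd and Ctsl turned with library totals alone (0.05 and 0.04), and those of Ctsl and Ctss without LFA1-lo replicate 2 (0.13 and 0.02).

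**Figure D3:**
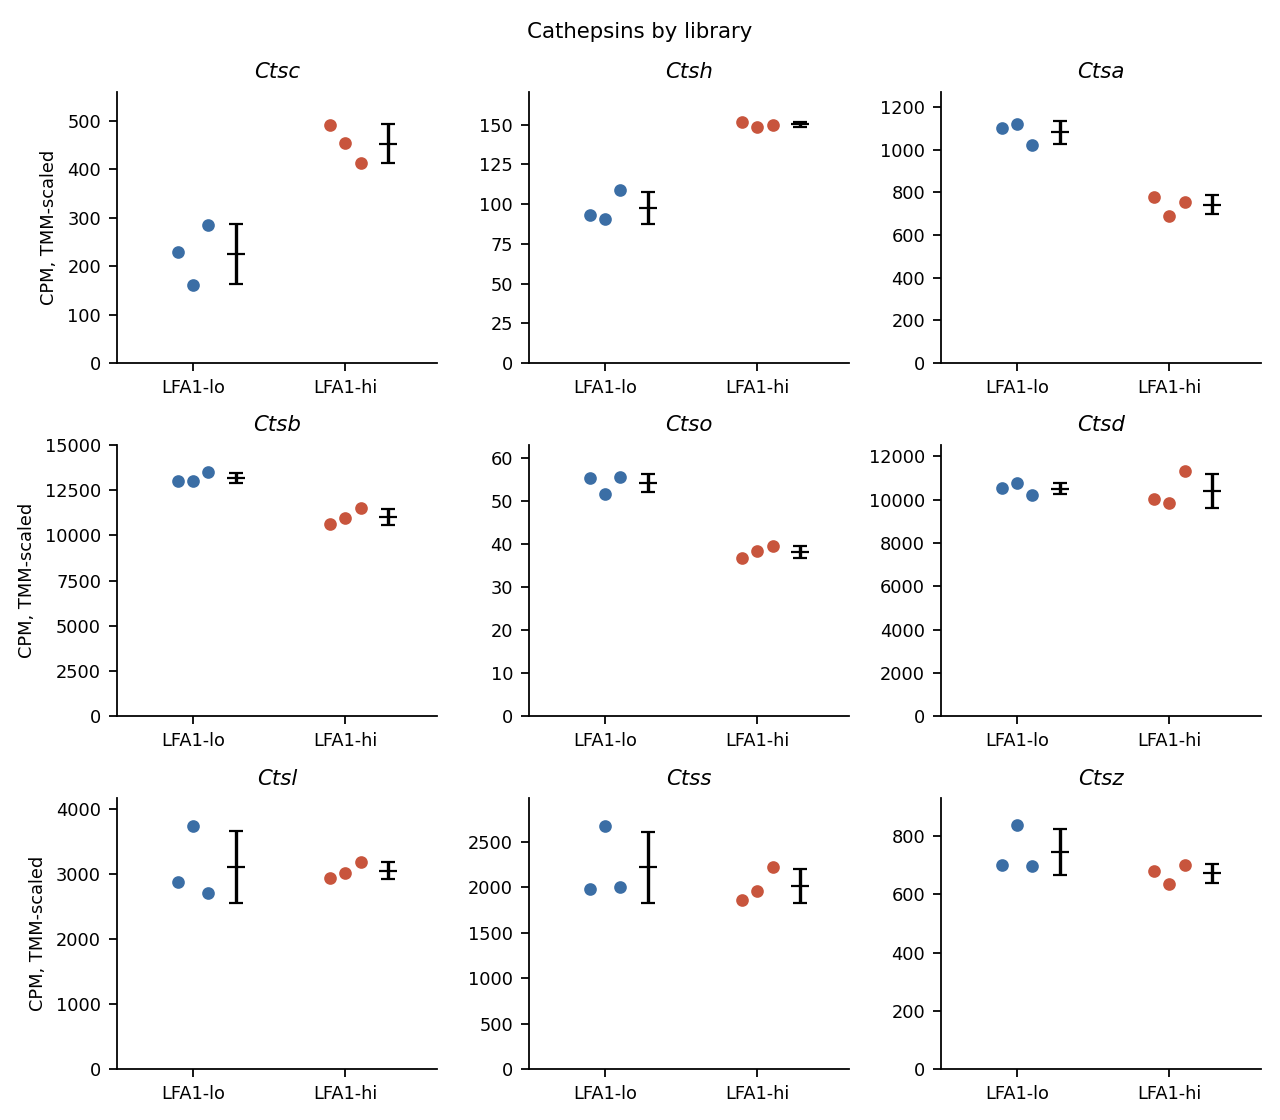
CPM of the 9 cathepsins in each library on linear axes from 0, with points for libraries and bars for mean ± SD (n = 3 per group). Ctsc and Ctsh are higher and Ctsa, Ctsb and Ctso lower in LFA1-hi with no overlap, and the points of the other 4 genes overlap.

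Among the 16 other hydrolases 5 were lower and 1 higher in LFA1-hi macrophages, where 15.6% and 16.1% of all tested genes were. The median log2 fold change of these hydrolases was −0.22. The lower genes were Man2b1, Hexa, Naglu, Asah1 and Lipa, and the higher one was Arsb. CPM of the groups did not overlap for 8 lower and 2 higher genes, where 22.9% and 24.8% of all tested genes had no overlap. Their summed level was 5023, 4516 and 4870.4 TPM in LFA1-lo and 3562 to 3687 TPM in LFA1-hi, with no overlap. Without LFA1-lo replicate 2 there were 10 lower genes, since Gaa, Glb1, Gusb, Tpp1 and Arsa were called as well. In that fit 20.5% of all tested genes were lower. Arsb was not called without LFA1-lo replicate 1 or LFA1-hi replicate 1, 2 or 3.

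Man2b1 (chromosome 8, 85082730 to 85098739) encodes the acid α-mannosidase, which takes mannose from the sugar chains of glycoproteins. It had 1011, 782 and 974 CPM in LFA1-lo and 497, 466 and 514 CPM in LFA1-hi. The lowest LFA1-lo library was well above the highest LFA1-hi library, and the log2 fold change was −0.91 (SE 0.10, edgeR adjusted p = 0.00029). Hexa (chromosome 9, 59539540 to 59565109) encodes the α subunit of β-hexosaminidase, which breaks down gangliosides. It had 995, 871 and 1042 CPM in LFA1-lo and 578, 567 and 568 CPM in LFA1-hi (a log2 fold change of −0.76, SE 0.08, edgeR adjusted p = 0.000229). The LFA1-hi values were nearly equal while those of LFA1-lo spread more.

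Naglu (chromosome 11, 101070090 to 101077672) encodes a glucosaminidase of heparan sulfate breakdown. It had 122, 100.3 and 115 CPM in LFA1-lo and 78.0, 69.9 and 76.4 CPM in LFA1-hi (a log2 fold change of −0.59, SE 0.10, edgeR adjusted p = 0.00181). Asah1 (chromosome 8, 41340646 to 41397644), encoding acid ceramidase, had 384, 342 and 400.5 CPM in LFA1-lo and 278, 291 and 282 CPM in LFA1-hi. The groups were apart, at a log2 fold change of −0.40 (SE 0.08, edgeR adjusted p = 0.00451). For Man2b1, Hexa, Naglu and Asah1 the call held under the 15 alternatives.

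Lipa (chromosome 19, 34492316 to 34527474), encoding the acid lipase that frees cholesterol from its esters, had the highest level per length of these hydrolases, at 1542 ± 143 TPM in LFA1-lo and 1240.3 ± 28.5 TPM in LFA1-hi. Its counts were 2416, 2573 and 2085 CPM against 1911, 1913 and 1946 CPM, which did not overlap (log2 fold change −0.29, SE 0.09, edgeR adjusted p = 0.0352). It was not called with library totals alone (−0.23) or without LFA1-lo replicate 1 (−0.27) or LFA1-hi replicate 1 (−0.29), 2 (−0.28) or 3 (−0.30), with edgeR adjusted p up to 0.123. Arsb (chromosome 13, 93771679 to 93943016) encodes arylsulfatase B, which removes sulfate from dermatan sulfate. It had 73.8, 55.8 and 93.2 CPM in LFA1-lo and 102, 107 and 128 CPM in LFA1-hi (a log2 fold change of 0.60, SE 0.18, edgeR adjusted p = 0.0342). All LFA1-hi libraries were above the LFA1-lo libraries, but the gap between LFA1-lo replicate 3 and LFA1-hi replicate 1 was small. Its value was 0.60 without LFA1-lo replicate 1 and 0.67, 0.64 and 0.50 without LFA1-hi replicate 1, 2 and 3, with edgeR adjusted p from 0.0598 to 0.113 over these fits.

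The 10 hydrolases that were not called had log2 fold changes from −0.32 to 0.18. Gusb, encoding β-glucuronidase and with Lipa and Hexa among the 3 hydrolases with the highest mean TPM, had 650.4, 642 and 696 CPM in LFA1-lo and 594, 577 and 594 CPM in LFA1-hi. Its groups did not overlap, yet the difference was small (−0.17, 95% interval −0.33 to −0.01, edgeR adjusted p = 0.0936). Gaa, the acid α-glucosidase of glycogen breakdown, had 125, 98.1 and 134 CPM against 99.3, 91.1 and 94.6 CPM (−0.32, edgeR adjusted p = 0.0578). Only LFA1-lo replicate 2 reached into the LFA1-hi range, and without it the value was −0.45 (edgeR adjusted p = 0.000196). DESeq2 called the gene with all 6 libraries (−0.33, adjusted p = 0.0422). Glb1, the β-galactosidase, had 179, 125 and 188 CPM against 139.9, 129 and 139.5 CPM, with LFA1-lo replicate 2 below the LFA1-hi range (−0.27, edgeR adjusted p = 0.183). With that library left out its value was −0.43 (edgeR adjusted p = 0.000148).

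The glycosidases Gla (−0.06, 95% interval −0.28 to 0.15), Manba (−0.06, −0.31 to 0.19) and Fuca1 (−0.13, −0.29 to 0.03) were not called, and their intervals span less than 1.5-fold each way. The peptidase gene Tpp1 (−0.18, edgeR adjusted p = 0.0889) and the sulfatase gene Arsa (−0.27, edgeR adjusted p = 0.125) were not called, except without LFA1-lo replicate 2 (−0.18 and −0.37). Ppt1, a thioesterase that removes palmitate from proteins, had a value of 0.18 (95% interval −0.10 to 0.46). Neu1, the sialidase, had 88.2, 81.1 and 84.9 CPM against 95.5, 91.4 and 96.5 CPM, which did not overlap (0.16, edgeR adjusted p = 0.157).

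Of the 7 membrane and helper proteins 4 were lower in LFA1-hi macrophages, where 15.6% of all tested genes were. These were Psap, Gpnmb, Lamp1 and Grn, and the median log2 fold change of the 7 was −0.36. Their summed level was 18249, 17760.0 and 17898 TPM in LFA1-lo and 12086 to 13426 TPM in LFA1-hi, with no overlap. Most of the fall in this sum came from Psap and Gpnmb, with means of 7964 and 5343 TPM in LFA1-lo and 5219 and 3872 TPM in LFA1-hi. Without LFA1-lo replicate 1 or LFA1-hi replicate 1, 2 or 3 the count was 2, as Lamp1 and Grn were not called there. Of all tested genes 11.5%, 9.84%, 9.21% and 10.0% were lower in these fits.

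Psap (chromosome 10, 60277628 to 60302600) encodes prosaposin, which is cut into the saposins that help enzymes reach sphingolipids. It had 10688, 11594 and 10006 CPM in LFA1-lo and 6528, 7088 and 7841 CPM in LFA1-hi (a log2 fold change of −0.59, SE 0.10, edgeR adjusted p = 0.00212). At 7964 ± 446 TPM in LFA1-lo and 5219 ± 487 TPM in LFA1-hi it was next to Ctsd in level per length in both groups. Gpnmb (chromosome 6, 49036518 to 49058182), a membrane glycoprotein first known from melanoma and a marker of lipid-laden macrophages, had 10583, 11131 and 10145 CPM against 7652, 7281 and 8520.5 CPM. The groups were apart (log2 fold change −0.44, SE 0.09, edgeR adjusted p = 0.00586).

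Lamp1 (chromosome 8, 13159161 to 13175338), a main glycoprotein of the lysosomal membrane, whose upstream stretch with 4 E-boxes is printed above, had 2158, 1822 and 2311 CPM against 1616, 1575 and 1630.4 CPM. No library overlapped (log2 fold change −0.38, SE 0.10, edgeR adjusted p = 0.0146). The value was −0.36 without LFA1-lo replicate 1 and −0.39, −0.36 and −0.39 without LFA1-hi replicate 1, 2 and 3, with edgeR adjusted p from 0.0538 to 0.0755. Grn (chromosome 11, 102430507 to 102436809) encodes progranulin, a secreted and lysosomal protein. It had 2324, 2089 and 2748 CPM against 1929, 1797 and 1859 CPM (−0.36, SE 0.10, edgeR adjusted p = 0.0276). Its call was lost with library totals alone (−0.30), without LFA1-lo replicate 1 (−0.38) or 3 (−0.24) or LFA1-hi replicate 1 (−0.38), 2 (−0.33) or 3 (−0.35), with edgeR adjusted p up to 0.122.

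Lamp2, the partner of Lamp1, had 684, 606 and 763 CPM against 621, 603 and 608 CPM (−0.16, 95% interval −0.37 to 0.04, edgeR adjusted p = 0.203). LFA1-lo replicate 2 lay inside the LFA1-hi range, and without it the value was −0.24 (edgeR adjusted p = 0.00665). Scarb2, an abundant protein of the lysosomal membrane, had a value of −0.09 (95% interval −0.27 to 0.09, edgeR adjusted p = 0.415). Mcoln1, the calcium channel mucolipin, had 32.7, 35.1 and 34.6 CPM against 24.9, 30.4 and 28.7 CPM. These did not overlap, but the gene was not called (−0.29, 95% interval −0.54 to −0.04, edgeR adjusted p = 0.077).

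Of the 25 pump genes 18 were tested, and 6 of these were lower in LFA1-hi macrophages while 12 were not called. The median log2 fold change was −0.17. By part of the pump, 3 of 7 tested V0 genes, 2 of 9 V1 genes and 1 of 2 accessory genes were lower, where 15.6% of all tested genes were. The summed level of the pump genes was 6086, 6575 and 6118 TPM in LFA1-lo and 5118 to 5309 TPM in LFA1-hi, with no overlap. This sum and the count of lower V0 genes include the pseudogene Atp6v0c-ps2. It alone had a mean of 614 TPM in LFA1-lo and 175 TPM in LFA1-hi, a good part of the fall in the sum. Without LFA1-hi replicate 1, 2 or 3 only Atp6v0a1 and the pseudogene Atp6v0c-ps2 were lower, a share near the 9.84%, 9.21% and 10.0% of all genes that were lower there. Without LFA1-lo replicate 2 there were 7 lower genes and 2 higher ones, where 20.5% and 21.8% of all genes were lower and higher.

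In the V0 part Atp6v0a1 (chromosome 11, 101009422 to 101063719) encodes an isoform of the large a subunit, which lines the proton path and steers the pump to its membrane. It had 813, 1080.4 and 769 CPM in LFA1-lo and 466, 457 and 537 CPM in LFA1-hi. The groups were far apart, and LFA1-lo replicate 2 was the highest library (log2 fold change −0.87, SE 0.13, edgeR adjusted p = 0.00143). The gene ends 6370 bases before Naglu on chromosome 11, and these were the only 2 tested members within 50000 bases of each other. Atp6v0a2, encoding another a isoform, had 64.3, 72.1 and 58.2 CPM against 67.2, 67.4 and 70.3 CPM (0.07, 95% interval −0.14 to 0.29). Tcirg1, the a3 isoform gene whose symbol lies outside the rule, had 278, 342 and 241 CPM against 215, 196 and 228 CPM (−0.43, SE 0.12, edgeR adjusted p = 0.0267). Its call was lost without LFA1-lo replicate 1 (−0.45) or LFA1-hi replicate 1 (−0.44), 2 (−0.37) or 3 (−0.48).

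Per length, Atp6v0a1 made up 64.8% ± 1.05 of the a subunit transcripts in LFA1-lo and 56.6% ± 1.14 in LFA1-hi. The share of Tcirg1 was 31.7% ± 0.911 and 37.5% ± 1.08, and that of Atp6v0a2 3.52% ± 0.267 and 5.86% ± 0.319. No library of a group reached the range of the other group for any of the 3 shares. Atp6v0a4, the isoform gene of kidney cells, was at 0 in all 6 libraries.

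Atp6v0c (chromosome 17, 24163865 to 24169678) encodes the c subunit of the rotating ring, and per length it was the highest pump gene, at 1049 ± 98.6 TPM in LFA1-lo and 1025 ± 40.8 TPM in LFA1-hi. It had 491, 619 and 526 CPM against 564, 499.7 and 554 CPM, an overlap of the groups (−0.02, 95% interval −0.24 to 0.21, edgeR adjusted p = 0.919). The sign turned with library totals alone (0.05) and without LFA1-lo replicate 2 (0.08) or LFA1-hi replicate 2 (0.04). Atp6v0c-ps2 (chromosome 6, 37805975 to 37807107), annotated as a pseudogene, had 278, 324 and 321 CPM in LFA1-lo and 94.0, 87.5 and 84.1 CPM in LFA1-hi. Its fall was the largest of all members (log2 fold change −1.80, SE 0.09, edgeR adjusted p = 9.81e-06). Reads that match both copies are divided between them by an estimate, so each value is uncertain. Added together they gave 769, 942 and 847 CPM in LFA1-lo and 658, 587 and 638 CPM in LFA1-hi, which did not overlap, a log2 ratio of −0.44.

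Atp6v0b (chromosome 4, 117884330 to 117887333), encoding another ring subunit, had 206, 197 and 174 CPM against 162, 148 and 169 CPM. The groups nearly met, and the fall was small (log2 fold change −0.27, SE 0.09, edgeR adjusted p = 0.0483). It was lost with library totals alone (−0.21), with no filter (−0.26), and without LFA1-lo replicate 1 (−0.21) or LFA1-hi replicate 1 (−0.28), 2 (−0.21) or 3 (−0.31). A long noncoding RNA is annotated over its whole span. Atp6v0d1 (−0.12, 95% interval −0.33 to 0.08) and Atp6v0e (−0.06, −0.24 to 0.12) were not called. The rule leaves out Atp6v0d2, a d isoform gene of osteoclasts and macrophages, which had 116, 288 and 101 CPM against 73.1, 109 and 159 CPM (−0.56, SE 0.50, edgeR adjusted p = 0.445). LFA1-lo replicate 2 stood far above the others, and without it the value was 0.07 (edgeR adjusted p = 0.911).

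In the V1 part Atp6v1a (chromosome 16, 44085402 to 44139702), encoding the catalytic A subunit, had 945, 986 and 992 CPM in LFA1-lo and 789, 789 and 827 CPM in LFA1-hi. Its groups were apart with little spread (log2 fold change −0.28, SE 0.07, edgeR adjusted p = 0.0141). In the fits without LFA1-hi replicate 1, 2 or 3 the value was −0.27, −0.26 and −0.30, and not called (edgeR adjusted p = 0.0686, 0.0758 and 0.0545). Atp6v1d (chromosome 12, 78842982 to 78862008), encoding a subunit of the central stalk, had 92.2, 93.2 and 95.5 CPM against 80.7, 74.4 and 83.0 CPM (−0.24, SE 0.08, edgeR adjusted p = 0.048). It was not called with library totals alone (−0.18), with no filter (−0.23), without LFA1-lo replicate 1 (−0.25) or 3 (−0.22), or without LFA1-hi replicate 1 (−0.25), 2 (−0.19) or 3 (−0.27).

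Atp6v1b2, the partner of Atp6v1a in the catalytic ring, had 727, 918 and 660.1 CPM against 636, 643 and 711 CPM (−0.21, 95% interval −0.48 to 0.06, edgeR adjusted p = 0.213). Atp6v1f had 106, 106 and 102 CPM against 95.1, 87.4 and 88.2 CPM, which did not overlap (−0.21, edgeR adjusted p = 0.0608). It was called without LFA1-lo replicate 2 (−0.21), with at least 10 CPM in 3 libraries (−0.22), with DESeq2 (−0.22), and on log2(TPM + 0.1) and log2(TPM + 1) (−0.23 each). Atp6v1c1, which encodes a subunit that links stalk and membrane part, had 223, 251 and 216 CPM against 257, 259 and 263 CPM (0.18, edgeR adjusted p = 0.12). It was called higher without LFA1-lo replicate 2 and with library totals alone (0.24 each). Atp6v1e1 (−0.03), Atp6v1g1 (0.04) and Atp6v1h (−0.04) had intervals that span less than 1.5-fold each way. Atp6v1g2 was near the limit of detection, at 1.47 ± 0.222 and 0.846 ± 0.265 CPM (−0.80, 95% interval −1.80 to 0.20, edgeR adjusted p = 0.203).

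Atp6ap1 (chromosome X, 74297097 to 74304721), an accessory protein that helps assemble V0, had 410.1, 452 and 439 CPM against 364, 344 and 372 CPM (−0.27, SE 0.07, edgeR adjusted p = 0.0218). The groups were apart, but without LFA1-hi replicate 1 (−0.27), 2 (−0.23) or 3 (−0.29) the gene was not called. Atp6ap2, the other accessory protein, also known as the prorenin receptor, had 169.9, 188 and 171 CPM against 193, 186 and 204 CPM (0.14, 95% interval −0.03 to 0.32, edgeR adjusted p = 0.194). LFA1-lo replicate 2 alone reached into the LFA1-hi range, and without it the value was 0.19 (edgeR adjusted p = 0.0347).

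Of the 7 pump genes that were not tested 5 were at 0 in all libraries, namely Atp6v0a4, Atp6v1b1, Atp6v1e2, Atp6v1g3 and Atp6ap1l. These allow up to 0.168 to 0.191 CPM per library, by counting error alone. Atp6v0e2 had at most 1.06 CPM and Atp6v1c2 at most 0.537 CPM in a library.

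**Figure D4:**
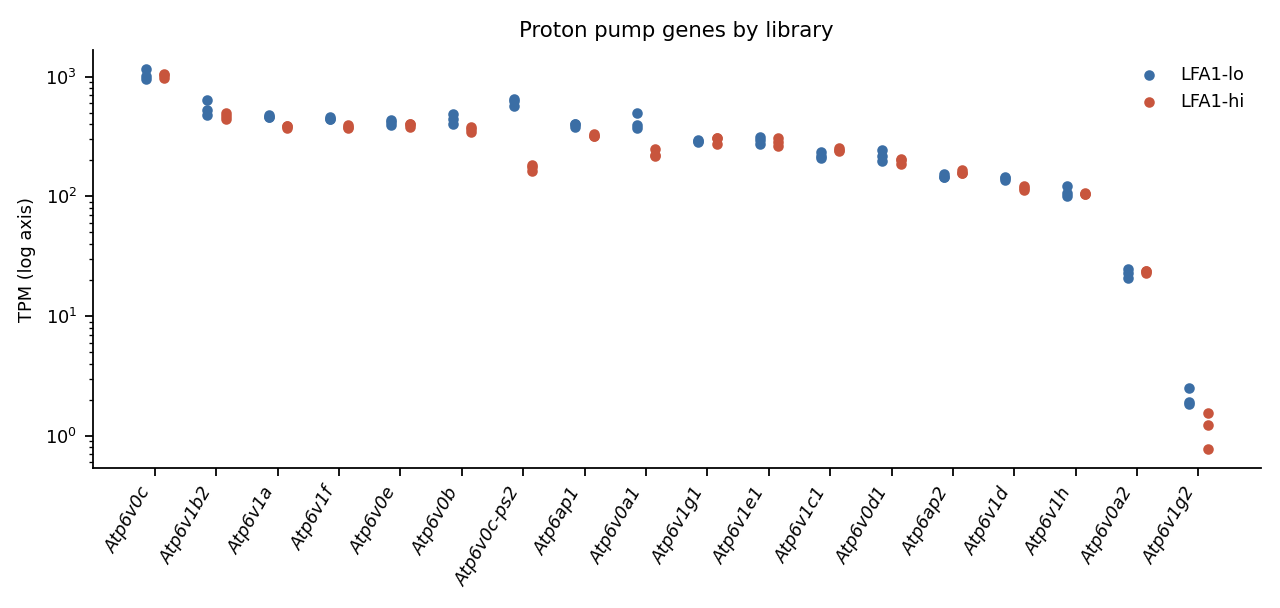
Level per length in TPM, on a log axis, of the 18 tested pump genes in each library, ordered by mean level, with LFA1-lo in blue and LFA1-hi in red. Atp6v0c is highest and Atp6v1g2 lowest, and the groups lie far apart for Atp6v0a1 and Atp6v0c-ps2.

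Among the LFA1-lo libraries replicate 2 took opposite ends in different classes. It was the highest of the 3 for 13 of 18 pump genes and the lowest for 13 of 16 other hydrolases. For the cathepsins it was highest for 5 of 9 and lowest for 3. Over all 54 tested members it was highest for 25, lowest for 23 and in the middle for 6. Whether its higher osteoclast markers had a part in this was not tested. The ranks were not taken over all tested genes, so they cannot be called particular to these classes.

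**Figure D5:**
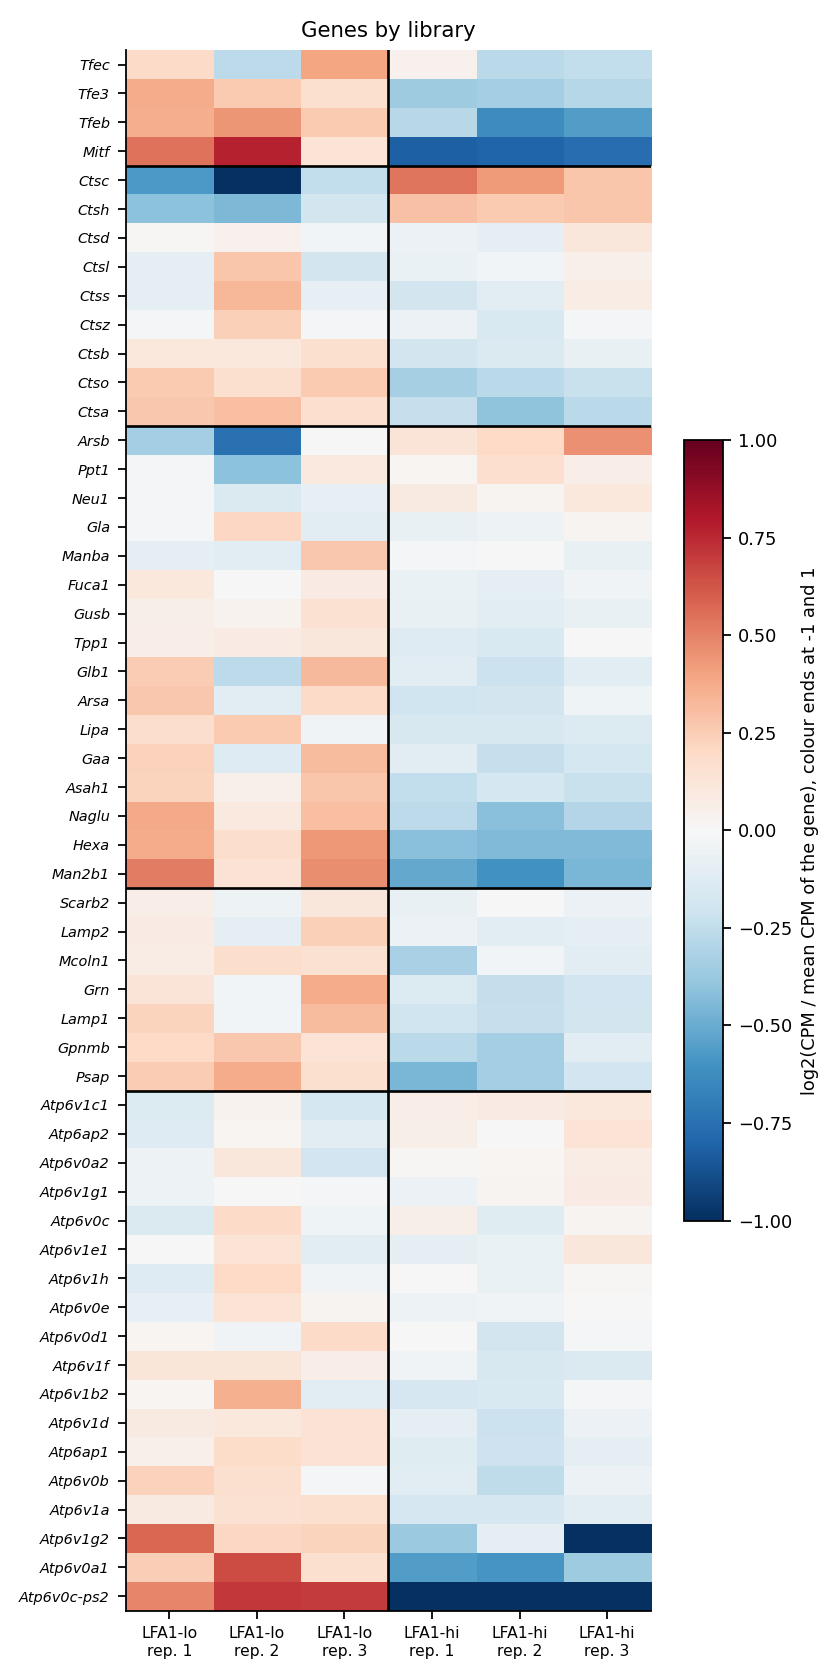
Log2 of CPM over the mean CPM of the gene for the 54 tested members in each library, red for above and blue for below the mean, with colours ending at −1 and 1 and lines between classes and groups. LFA1-lo replicate 2 is paler or bluer than replicates 1 and 3 over most hydrolases and redder over most pump genes.

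A further list of 45 lysosomal genes, all tested, had 18 lower and 4 higher genes, where 15.6% and 16.1% of all tested genes were lower and higher. Its median log2 fold change was −0.23. Without LFA1-lo replicate 2 there were 26 lower and 7 higher genes, where 20.5% and 21.8% of all genes were. The largest falls were of Ctsf (chromosome 19, 4855165 to 4860918), encoding cathepsin F, with 15.8, 9.13 and 14.6 CPM against 7.27, 3.63 and 5.77 CPM (−1.24, SE 0.29, edgeR adjusted p = 0.0106), of Pld3 (−1.05, edgeR adjusted p = 0.000921), a lysosomal nuclease, and of Glb1l (−0.91, edgeR adjusted p = 0.00236). Among the higher genes was Galns, a sulfatase of keratan sulfate, with 61.2, 78.0 and 56.2 CPM against 97.0, 89.4 and 95.5 CPM, which did not overlap (0.53, edgeR adjusted p = 0.0097).

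Genes of mTORC1 and of its folliculin arm act on where Tfeb and Tfe3 sit in the cell. Of 23 tested 4 were lower and 1 higher, with a median of −0.16. The lower share is close to the 15.6% of all tested genes that were lower, and the higher share is below 16.1%. Rptor, the scaffold subunit of mTORC1, had 149.9, 172 and 128 CPM against 105, 89.3 and 107 CPM (−0.58, SE 0.12, edgeR adjusted p = 0.00625). Flcn, or folliculin, had 69.6, 45.7 and 67.1 CPM against 43.3, 39.4 and 44.8 CPM (−0.52, edgeR adjusted p = 0.0303), and Lamtor1, which anchors the complex on the lysosome, fell by 0.45 on the log2 scale (edgeR adjusted p = 0.0147). Flcn was not called with library totals alone (−0.46), on log2(TPM + 0.1) (−0.51) or log2(TPM + 1) (−0.50), or without LFA1-lo replicate 1 (−0.41) or 3 (−0.44) or LFA1-hi replicate 1 (−0.53), 2 (−0.46) or 3 (−0.55). Lamtor1 was not called without LFA1-hi replicate 2 (−0.38) or 3 (−0.44). Tsc1, named after its values were seen, was the other lower gene (−0.29, edgeR adjusted p = 0.0456), and Rheb, the activator of mTORC1, was higher (0.30, edgeR adjusted p = 0.0271). Without LFA1-hi replicate 2 or 3 only 1 gene was lower, where 9.21% and 10.0% of all tested genes were. Without LFA1-lo replicate 1 or 3 or LFA1-hi replicate 1 there were 2, where 11.5%, 14.6% and 9.84% of all genes were lower. Without LFA1-lo replicate 2 there were 7, where 20.5% of all genes were lower. Rheb was not called without LFA1-lo replicate 1 (0.27) or 3 (0.28) or LFA1-hi replicate 1 (0.31), 2 (0.27) or 3 (0.33).

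The tables also give a mean transcript length per gene, weighted by the estimated share of each isoform. Among the 11 tested members with several transcripts the group means differed by at most 0.689%, and 0 differed by 10% with no overlap. Of the 3583 tested genes with several transcripts 0.781% did.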

How the data were processed

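Expected counts of the 6 libraries were used, which the authors made with RSEM per the submitters' processing notes; these also name bcl2fastq, Trim Galore and the build GRCm38. The deposited expected counts, per the file headers, are estimated reads per gene, not normalized. The deposited TPM values, per the file headers, are scaled by transcript length and library. The deposited FPKM values, per the file headers a measure scaled by length and library size, were not used. Not given in the sources used here are versions, aligner, annotation release and use of strand. Per the labels' protocols RNA was taken on day 7 after the medium was removed.

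Counts were rounded, since 5.53% to 6.06% per library were not whole. Genes were filtered with filterByExpr (11692 of 24411 kept), scaled by TMM (factors 0.956 to 1.03), and tested by quasi-likelihood with robust fits in edgeR 4.0.16 (R 4.3.3), where p-values were adjusted after Benjamini-Hochberg over the tested genes and called at 0.05. The spread (coefficient of variation 15%) was estimated over both groups together. CPM use TMM-scaled totals, and levels are compared between genes in TPM alone. Between 13248 and 13585 genes per library were above 0. Coordinates and promoters are from RefSeq on GRCm38.p6, counted from 1. Of the 61 members 23 overlap another annotated gene, 9 of the 24 called ones among them. Tfe3 shares 3903 bases with a long noncoding RNA. Asah1 shares 8464 bases with Frg1, which was not called (−0.11, edgeR adjusted p = 0.516). As the use of strand is not given, reads of shared bases cannot be told apart for any of these genes. Python 3.11.15 with pandas 2.3.3, matplotlib 3.10.9 and numpy 2.4.6 served for tables and plots.

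In simulated data drawn from the means of these libraries (11667 genes), 200 genes were changed. The LFA1-hi minus LFA1-lo fit found 40 of 100 planted changes of 1.5-fold and 72 of 100 of 2-fold. Of its 125 calls 13 were false. In the real data 31.7% of tested genes were called, a far larger share, so these rates may not hold there. Alternatives were RLE size factors, library totals alone, no filter, at least 10 CPM in 3 libraries, DESeq2 1.42.0, limma 3.58.1 (voom, and trend on log2 of TPM + 0.1 or + 1), the replicate number as a block, and fits without each library.

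The members, the further lists and the tests were chosen with earlier results of these data known, so none is independent of them. All factors and cathepsins are named. In the other classes the 6 largest called changes and the 3 genes with the highest mean TPM are named, further members as the text needs them. Of each further list the 3 largest called changes each way were taken, some of which are not reported here, and Tcirg1 and Atp6v0d2 are named as related pump genes. Castor1 of the mTORC1 list and Ly6g of the neutrophil markers were not analysed here.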

Additional observations from a re-analysis of the deposited data

How the results depend on the processing

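Of the 24 called members 15 were called under all 15 alternatives and 9 lost the call under some of them, and 10 of 30 other members gained a call under some. With library totals alone, which shift the median of all genes by 0.06, 16 members were lower and 4 higher, 1 of the higher ones a pump gene. Of all tested genes 12.6% were lower and 19.6% higher in that fit. Under that setting 2 of the 23 genes of the mTORC1 list were lower, where 12.6% of all tested genes were. On log2(TPM + 0.1) and log2(TPM + 1) there were 2 each, where 14.6% and 14.7% of all genes were lower. DESeq2 gave 23 lower members (17.4% of all genes were lower). With the replicate block 16 members were lower (13.4% of all genes), 3 of them pump genes, and Ctsb, Lipa, Atp6v0b, Atp6v1d, Atp6ap1 and Tcirg1 were not called. Deviations of same-numbered libraries correlated at 0.04, 0.02 and −0.07, so the numbers do not pair the libraries.

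Leaving out each library in turn gave these lowest and highest counts. Of all tested genes 9.21% to 20.5% were lower and 9.81% to 21.8% higher over these fits. All members had 13 to 29 lower and 2 to 5 higher genes. Other hydrolases had 4 to 10 lower and 0 to 1 higher, membrane and helper proteins 2 to 5 lower, and pump genes 2 to 7 lower and 0 to 2 higher. Further lysosomal genes had 12 to 26 lower and 3 to 7 higher, and the mTORC1 list 1 to 7 lower and 0 to 1 higher.

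The signs that turned belong to genes that were not called. With library totals alone they were Ctsd (0.05), Ctsl (0.04), Atp6v0c (0.05), Atp6v0e (0.00), Atp6v1e1 (0.04) and Atp6v1h (0.02). Over the fits without 1 library the log2 fold change ran from −0.08 to 0.03 for Ctsd, −0.11 to 0.13 for Ctsl, −0.21 to 0.02 for Ctss, −0.13 to 0.03 for Gla, −0.13 to 0.08 for Manba, −0.08 to 0.08 for Atp6v0c, −0.09 to 0.04 for Atp6v1e1, −0.11 to 0.06 for Atp6v1h and −0.88 to 0.07 for Atp6v0d2. The cause was not tested. With 3 libraries a group, an exact permutation test of a single value cannot go below 0.1.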
